A study of Mus musculus with 4 samples.

Results

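The genes described here are 10 extracellular matrix and mesenchymal genes: Col1a1, Col1a2, Col3a1, Col4a1, Col4a2, Fn1, Sparc, Pdgfrb, Vim and Lgals1. They were looked up by symbol in an expression table of purified ependymal multicilia, as a check on RNA of fibroblasts or mural cells in the preparations. They were chosen by their FPKM in the libraries of both siRNAs, that is, picked with their FPKM (fragment density scaled to transcript length and library size) in this same table already known, so their levels are given as a description. Of the 10 genes, 8 had a row, with 11 transcript rows between them, out of 12515 rows and 10213 gene symbols in all. Col1a1 and Col3a1 had no row.

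The study compared RNA of multicilia from mouse ependymal cells depleted of Fmrp, an RNA-binding protein encoded by Fmr1, with multicilia from control cells. Telencephalon of C57BL/6 pups, taken within a day of birth, was dissociated and grown into multiciliated ependymal cells (mEPCs) in culture. The Ctrl-i group received a control siRNA and the Fmr-i1 group an siRNA against Fmr1, both at 40 pmol every 3 days from the day before serum was withdrawn until harvest 10 days later. Shear force released the apical cortexes that carry the multicilia, these were purified on an iodixanol gradient, and their poly(A) RNA was sequenced from a strand-specific library kit. Each group held 2 libraries, 1 from each of 2 independent experiments (Exp.1 and Exp.2), with no other difference in strain or treatment in the labels. The labels name laminin and the study's methods name fibronectin as the coating of the culture surface, both of them proteins. The labels state that loosely attached oligodendrocytes and neurons were shaken off, and they name no step that removes fibroblasts or mural cells. In bulk RNA of such a purified fraction, fewer cells of a type, less RNA per cell and less cell-body RNA carried into the fraction cannot be told apart.

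Fibrillar collagens such as types I and III are the main matrix products of fibroblasts, and Pdgfrb is a receptor that marks pericytes and other mural cells. Type IV collagen, in contrast, is the network-forming collagen of basement membranes, which many cell types deposit. Vim, Sparc and Lgals1 are common in mesenchymal cells, but glial cells of the brain also make them, Vim being an intermediate filament of radial glia, astrocytes and ependymal cells.

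Some facts of the libraries bear on every value below. Fmr1, the siRNA target, had 1 row, that of a single transcript. It was listed at 0.42 FPKM in Ctrl-i Exp.1, 8.13 in Ctrl-i Exp.2 and 0 in both Fmr-i1 libraries. The Ctrl-i libraries thus differed widely in this row of the target. Other transcripts of Fmr1 had no row, so its RNA as a whole cannot be compared. Every row was above 0 under Ctrl-i, 162 rows held a 0 in Fmr-i1 Exp.1 and in Fmr-i1 Exp.2 alike, and 0 rows held it in only 1 of them. A transcript without a row, such as those of Col1a1 and Col3a1, can therefore not be read as absent from the RNA. Mitochondrially encoded RNAs took 28.1% of the summed FPKM in Ctrl-i Exp.1, 38.4% in Ctrl-i Exp.2, 28.8% in Fmr-i1 Exp.1 and 23.5% in Fmr-i1 Exp.2. The table gives no read counts, so the depth behind each FPKM is unknown.

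The rows are single transcripts, and for 3 of the genes the transcript listed decides what the values can say. The bases that tell these rows apart are shown here, from the GENCODE M21 transcripts on mouse build GRCm38. The 2 Sparc rows (chromosome 11, minus strand) come from protein-coding transcripts of 10 exons each. Sparc-202 starts 182 bases further into exon 1 and lacks 3 coding bases at the start of exon 3, given in capitals at chr11:55407277-55407279.
Sparc-201: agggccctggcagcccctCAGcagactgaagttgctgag
Sparc-202: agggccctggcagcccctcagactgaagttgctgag
Every other base of Sparc-202 is also in Sparc-201, so few reads can separate the 2 rows and the sum over both is the firmer quantity.

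The 2 Vim rows (chromosome 2, plus strand) differ at their ends and inside. Vim-201 holds 329 exonic bases before the start of Vim-206 and 1 base after its end. It also holds exon 8, the 86 bases at chr2:13581613-13581698, as 1 of its 9 exons, whereas Vim-206 has 8 exons and lacks it. Vim-206 has no base of its own, so only reads across its junction after exon 7 can separate it from Vim-201. The junction after exon 7 is shown for each row, with the start of exon 8 in capitals.
Vim-201: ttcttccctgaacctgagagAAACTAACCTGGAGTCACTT
Vim-206: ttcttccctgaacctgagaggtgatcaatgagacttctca

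The only Fn1 row (chr1:71585526-71609567, minus strand) was ENSMUST00000185408, a transcript of 17 exons and 4022 bases that GENCODE classes as a retained intron with no coding sequence. It starts inside an exon of the full-length transcripts, of which GENCODE M21 has 7, with 44 to 46 exons and none with a row. The intron it keeps has 626 bases at chr1:71597748-71598373, and its bases at both boundaries are in capitals.
Fn1 row, 5′ end of the intron: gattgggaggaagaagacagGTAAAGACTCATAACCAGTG
Fn1 row, 3′ end of the intron: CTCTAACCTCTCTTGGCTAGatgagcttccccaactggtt
The transcript spans the alternative EDA exon, 270 bases at chr1:71603660-71603929 in 4 of the 7 full-length transcripts, and holds no base of it. Since 14 of its exons are identical to exons of full-length transcripts, the FPKM of this row may hold reads of those, and how the reads were divided was not tested.

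Vim, an intermediate filament, was the most abundant of the genes. Its rows summed to 3796.76 FPKM in Ctrl-i Exp.1, 2686.48 in Ctrl-i Exp.2, 3746.30 in Fmr-i1 Exp.1 and 3239.04 in Fmr-i1 Exp.2. The groups overlapped, Ctrl-i Exp.2 was the lowest library, and the gene stood at the 99.9th percentile of all symbols in every library. Nearly all of this came from Vim-201, at 3750.95, 2647.85, 3712.82 and 3214.56 FPKM in the same order. Vim-206, the transcript without exon 8, was at 45.81, 38.63, 33.48 and 24.48 FPKM, with both Fmr-i1 libraries below both Ctrl-i libraries. It made up 1.21% and 1.44% of the Vim sum under Ctrl-i, against 0.89% and 0.76% under Fmr-i1. Since few reads can separate the 2 rows, the sum over both is the firmer quantity.

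Sparc, a secreted collagen-binding glycoprotein, had a summed FPKM of 1307.40 in Ctrl-i Exp.1, 1094.23 in Ctrl-i Exp.2, 1118.34 in Fmr-i1 Exp.1 and 1857.01 in Fmr-i1 Exp.2. Fmr-i1 Exp.2 stood above the other libraries, while Fmr-i1 Exp.1 lay between both Ctrl-i libraries. The 2 rows moved differently. Sparc-201 was nearly level at 598.40, 669.27, 697.96 and 716.35 FPKM, whereas Sparc-202 was at 709.00, 424.96, 420.38 and 1140.66 FPKM. Sparc-202 thus gave 54.2% of the sum in Ctrl-i Exp.1, 38.8% in Ctrl-i Exp.2, 37.6% in Fmr-i1 Exp.1 and 61.4% in Fmr-i1 Exp.2, an order that follows neither siRNA nor experiment.

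Lgals1, which encodes galectin-1, a carbohydrate-binding protein, was at 335.94 FPKM in Ctrl-i Exp.1, 179.97 in Ctrl-i Exp.2, 354.53 in Fmr-i1 Exp.1 and 353.79 in Fmr-i1 Exp.2. The other libraries lay close together and Ctrl-i Exp.2 was low, so that the groups did not overlap but Fmr-i1 exceeded Ctrl-i by only 1.06 times in Exp.1 against 1.97 times in Exp.2.

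**Figure D1:**
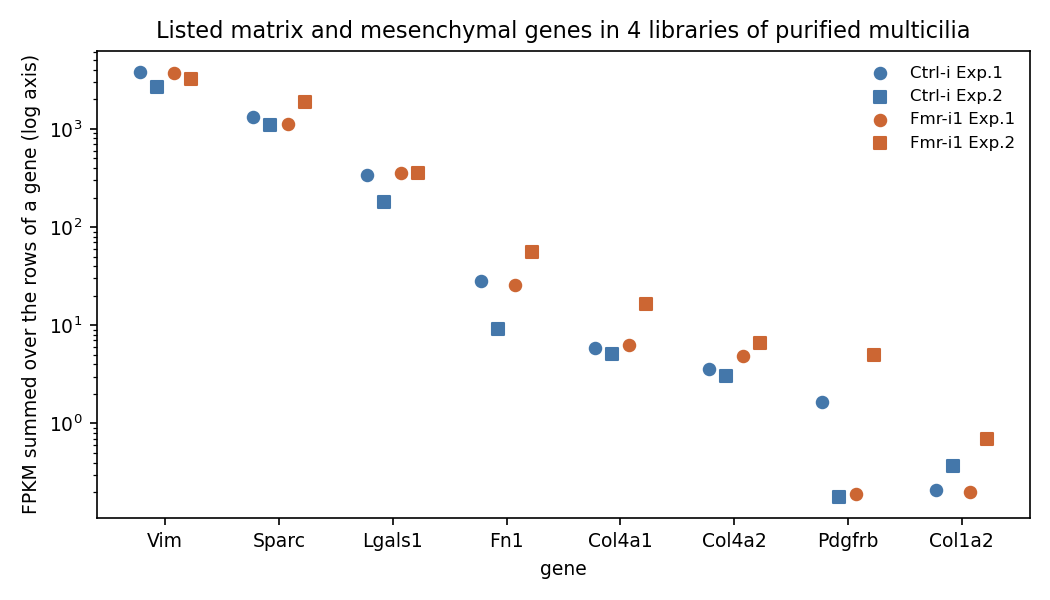
FPKM summed over the rows of each of the 8 listed genes on a log axis, with 1 point per library (blue, Ctrl-i; orange, Fmr-i1; circles, Exp.1; squares, Exp.2). Vim, Sparc and Lgals1 lie above 100 FPKM in every library, and Fmr-i1 Exp.2 is the highest point for 6 of the 8 genes.

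Type I and III collagen chains, the products most typical of fibroblasts, were near the floor of the table or had no row. Col1a2, which encodes the alpha-2 chain of type I collagen, was at 0.21 FPKM in Ctrl-i Exp.1, 0.37 in Ctrl-i Exp.2, 0.20 in Fmr-i1 Exp.1 and 0.70 in Fmr-i1 Exp.2. These values overlapped and lay between the 1.4th and the 4.4th percentile of all symbols. Its partner in the type I trimer, Col1a1, and the type III chain Col3a1 had no row.

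The type IV collagen chains were low but clearly listed. The protein-coding Col4a1 row was at 5.90 FPKM in Ctrl-i Exp.1, 4.41 in Ctrl-i Exp.2, 6.25 in Fmr-i1 Exp.1 and 16.37 in Fmr-i1 Exp.2. A second Col4a1 row, annotated as a target of nonsense-mediated decay, was at 0.02 and 0.67 FPKM under Ctrl-i and was listed at 0 in both experiments under Fmr-i1. Col4a2 was at 3.61, 3.06, 4.87 and 6.56 FPKM in the same order of libraries. For both chains the Fmr-i1 libraries lay above the Ctrl-i libraries, by 1.06 and 1.35 times in Exp.1 and by 3.71 and 2.14 times in Exp.2 for the protein-coding Col4a1 row and Col4a2. Their ratio was 1.63 and 1.44 under Ctrl-i, 1.28 in Fmr-i1 Exp.1 and 2.50 in Fmr-i1 Exp.2, so the 2 chains, which assemble into 1 trimer, did not keep a fixed ratio.

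These genes lie head to head on chromosome 8, Col4a1 on the minus and Col4a2 on the plus strand, and their first exons share the 22 bases at chr8:11312805-11312826. They are shown in capitals on the plus strand, from the RefSeq promoter sequence of build GRCm38.p6, because both genes start here.
Col4a1 and Col4a2: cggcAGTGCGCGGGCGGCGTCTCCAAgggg
The letters GGGCGG, the core of a GC box, occur in the shared bases. Read on both strands, GGGCGG was in 35.7% and CCAAT in 37.4% of the 32851 RefSeq promoter windows (250 bases before to 50 after the start), and both words were in the windows of Col4a1, Col4a2 and Col1a2. The shared bases lie in the windows of both Col4a1 and Col4a2, so the GGGCGG there counts for both genes. Promoter windows were found for 6 of the 10 genes. Neither GGGCGG nor CCAAT was in those of Col3a1 and Sparc, and that of Vim held CCAAT but not GGGCGG. The Col4a2 transcript also shares 43 exonic bases with Gm15419, a gene on the other strand, and without knowing whether strand was used in counting, reads from such shared bases cannot be told apart.

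Fn1, which encodes fibronectin, was at 28.56 FPKM in Ctrl-i Exp.1, 9.11 in Ctrl-i Exp.2, 25.87 in Fmr-i1 Exp.1 and 56.20 in Fmr-i1 Exp.2 in its single row. The groups overlapped: Fmr-i1 was 0.906 times Ctrl-i in Exp.1 and 6.17 times Ctrl-i in Exp.2. Within Ctrl-i alone, Exp.1 was 3.14 times Exp.2.

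Pdgfrb, the PDGF receptor of mural cells (chromosome 18), was at 1.65 FPKM in Ctrl-i Exp.1, 0.18 in Ctrl-i Exp.2, 0.19 in Fmr-i1 Exp.1 and 4.99 in Fmr-i1 Exp.2. It was the most variable of the genes, with a highest library 27.7 times the lowest, and the experiments went opposite ways, at 0.115 times Ctrl-i in Exp.1 and 27.7 times in Exp.2. The groups overlapped, and the 2 lowest libraries belonged to different siRNAs and different experiments. In those libraries the gene stood at the 1.2th and 2.0th percentile of all symbols, near the floor, so both ratios rest on values of 0.18 and 0.19 FPKM.

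The summed FPKM of the 8 genes was 5480.05 in Ctrl-i Exp.1, 3978.48 in Ctrl-i Exp.2, 5256.55 in Fmr-i1 Exp.1 and 5534.66 in Fmr-i1 Exp.2, or 0.939%, 0.674%, 0.932% and 1.03% of all FPKM. Vim, Sparc and Lgals1 made up nearly all of it. Col4a1, Col4a2, Fn1, Col1a2 and Pdgfrb together came to 39.95, 17.80, 37.38 and 84.82 FPKM, so that Fmr-i1 was 0.936 times Ctrl-i in Exp.1 and 4.77 times in Exp.2.

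**Figure D2:**
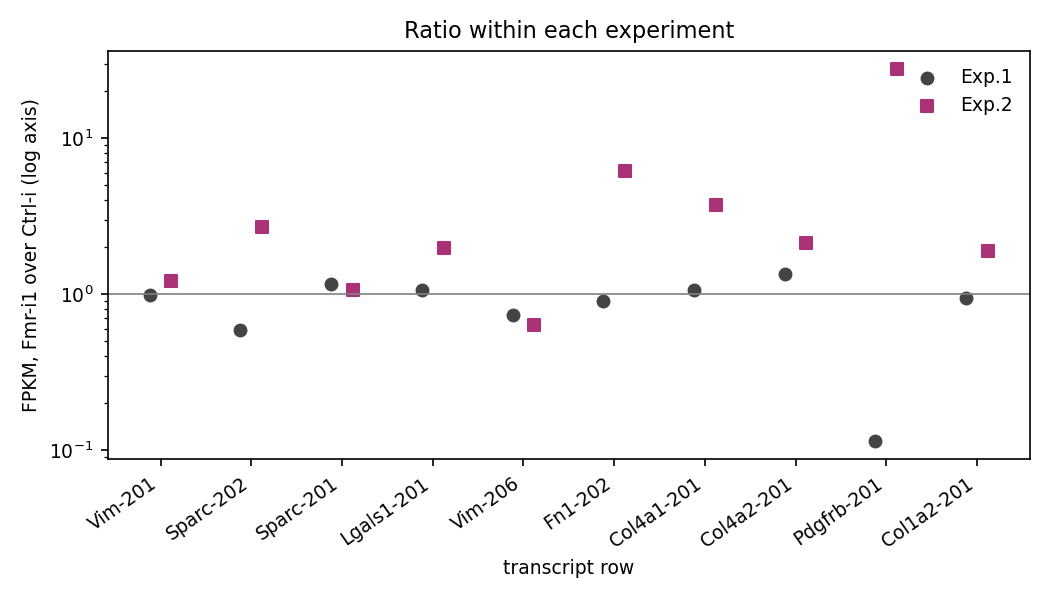
FPKM in Fmr-i1 divided by FPKM in Ctrl-i within Exp.1 (circles) and within Exp.2 (squares) on a log axis, for the 10 transcript rows above 0 in all libraries; the line marks equal FPKM. In Exp.1 the ratios run from 0.115 for Pdgfrb-201 to 1.35 for Col4a2, and in Exp.2 all but that of Vim-206 are above 1.

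The siRNA comparison was fitted with limma on log2(FPKM + 1), with the experiment as a block, over the 11898 rows that averaged 1 FPKM or more. Col1a2 and the second Col4a1 row fell below that mean, which left 9 of the 11 rows. None of the 9 passed an adjusted p of 0.05, and over all rows 0% (0 of 11898) did, with 598 rows at an unadjusted p of at most 0.05. The fitted differences (Fmr-i1 minus Ctrl-i, log2 scale, n = 2 per group) ran from -0.54 (SE 0.33) for Vim-206 to 1.18 (SE 0.67) for Fn1. Between them lay Vim-201 at 0.13 (SE 0.31), Sparc-201 at 0.16 (SE 0.27), Sparc-202 at 0.33 (SE 0.55), Lgals1 at 0.52 (SE 0.33), Pdgfrb at 0.59 (SE 0.90), Col4a2 at 0.62 (SE 0.50) and the protein-coding Col4a1 row at 0.88 (SE 0.58). No difference reached 2 times its SE. The pseudocount of 1 FPKM compresses the differences of low rows such as Pdgfrb.

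The median over the 9 rows was 0.52, beside 0.16 over all rows tested. Taken within each experiment it was -0.01 in Exp.1 and 0.97 in Exp.2. Without Ctrl-i Exp.2 the median of the 9 rows fell to 0.08, beside 0.08 over all rows, and without Fmr-i1 Exp.2 it fell to 0.24, beside 0.14. Both of these fits also dropped the experiment block. With each library divided by its median FPKM, the median over all rows went from 0.16 to -0.01 and that of the 9 rows to 0.33. Vim-201 and Sparc-201 turned to -0.06 and -0.04 under that scaling.

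Between experiments, too, none of the 9 rows passed the threshold (Exp.2 against Exp.1, the same limma fit), and over all rows 0% (0 of 11898) did, with 373 at an unadjusted p of at most 0.05. The fitted differences of the 9 rows (Exp.2 minus Exp.1, log2 scale) ran from -0.45 (SE 0.33) for Lgals1 to 0.58 (SE 0.90) for Pdgfrb.

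Summed per gene, 3 of the 8 genes (Col4a1, Col4a2 and Lgals1) were higher in Fmr-i1 in both experiments, beside 35.1% of all symbols, and 0 of 8 were lower in both, beside 16.1%. The same 3 genes had both Fmr-i1 libraries above both Ctrl-i libraries, beside 26.7% of all symbols, and 0 of 8 had both below, beside 10.7%. With median scaling both counts of 3 fell to 1, beside 23.9% of all symbols higher in both experiments and 16.9% with both Fmr-i1 libraries above. Fmr-i1 Exp.2 was the highest library for 6 of the 8 genes, beside 35.4% of all symbols, the exceptions being Vim and Lgals1. Ctrl-i Exp.2 was the lowest library for 7 of the 8, beside 38.3%, the exception being Col1a2. Since the genes were chosen with these values known, nothing is read from those counts, and the same libraries were examined in the wider matrix lists.

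The matrix lists were also drawn up with earlier results of the table known. Over 8 lists of matrix proteins, their processing enzymes and their receptors, 101 of 198 genes had a row. None of the 97 averaging 1 FPKM or more passed the threshold in either direction, their median log2 difference was 0.37, and 78 were above 0 and 19 below, beside a median of 0.16 and 6380 above and 3424 below 0 among all 9804 symbols. With median scaling 68 were above 0 and 29 below, when the median over all rows tested was -0.01. The counts above and below 0 among all symbols were not taken under that scaling. Both Fmr-i1 libraries lay above both Ctrl-i libraries for 28 of the 101, beside 26.7% of all symbols, and below for 4, beside 10.7%. The genes without overlap that are named below were picked by size of difference, and do not stand for their lists. Fmr-i1 Exp.2 was the highest library for 63 of the 101 (62.4%). Without the members themselves this was 58 of 96 (60.4%), beside 35.4% of all symbols. Genes outside the matrix lists shared it in part: that library was also the highest for 5 of 6 listed radial glia and neural stem cell markers. Among listed astrocyte markers it was the highest for 2 of 9, and among ependymal markers for 4 of 13.

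**Figure D3:**
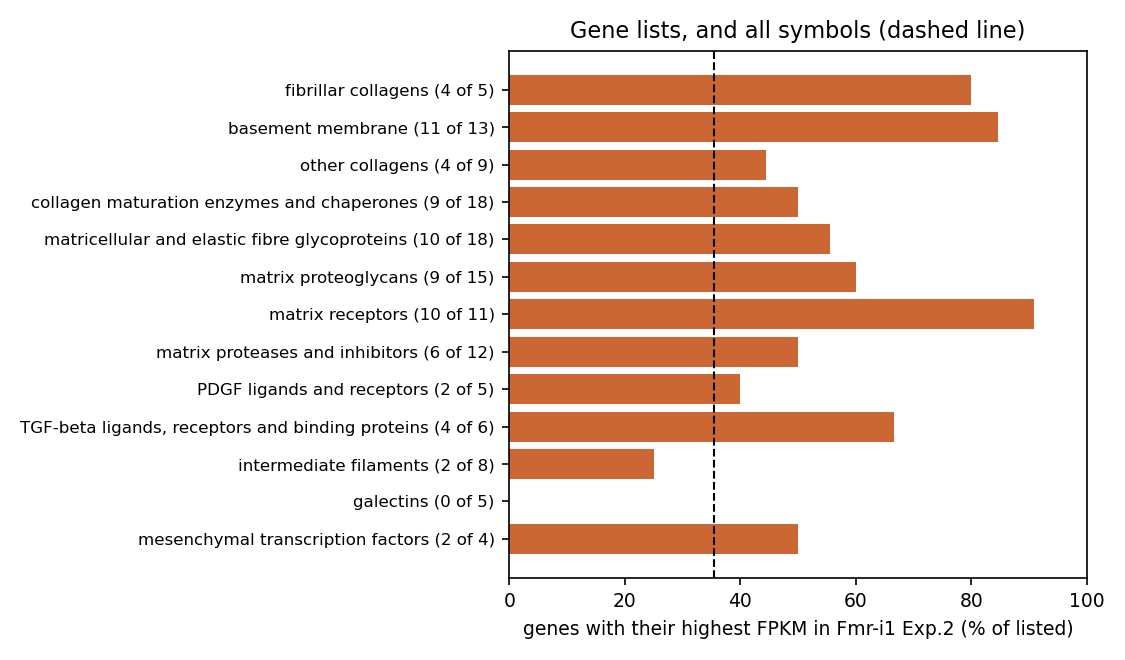
Share of the listed genes of each pathway list whose highest summed FPKM was in Fmr-i1 Exp.2, with the counts beside each name; the dashed line is the share among all symbols, 35.4%. Matrix receptors (10 of 11) and basement membrane (11 of 13) have the longest bars, and galectins (0 of 5) have none. With median scaling the first 2 were 9 of 11 and 9 of 13, beside 25.3% of all symbols.

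Among basement membrane genes, 13 of 23 had a row and 11 of these were highest in Fmr-i1 Exp.2. Their summed FPKM was 127.60 in Ctrl-i Exp.1, 83.52 in Ctrl-i Exp.2, 135.26 in Fmr-i1 Exp.1 and 253.98 in Fmr-i1 Exp.2. The most abundant were Lamb2, the laminin beta-2 chain, at 37.43, 20.53, 24.54 and 55.13 FPKM, Agrn, the proteoglycan agrin, at 25.82, 13.25, 25.49 and 59.97, and Col4a5, another type IV collagen chain, at 18.52, 9.42, 17.68 and 39.27. All 3 overlapped between the groups. Lamc1, the laminin gamma-1 chain, did not overlap, at 9.67, 11.08, 22.10 and 33.81 FPKM, with a fitted difference of 1.32 (SE 0.38).

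Fibrillar collagens were represented by 5 of 11 genes, of which Col5a2, a type V collagen chain, was the highest at 12.12 FPKM in Ctrl-i Exp.1, 6.10 in Ctrl-i Exp.2, 11.06 in Fmr-i1 Exp.1 and 18.88 in Fmr-i1 Exp.2. Col11a1 and Col5a3 stayed under 5 FPKM in every library. The groups overlapped for all 5, a count too small to set against the 26.7% of all symbols with both Fmr-i1 libraries above and the 10.7% with both below. Of the other collagens, 9 of 22 had a row. Col12a1, which associates with fibrils, was at 11.26, 3.42, 10.41 and 34.16 FPKM, and Col9a3, a type IX chain, went the other way without overlap, at 10.05, 7.67, 5.25 and 4.92.

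Enzymes and chaperones of collagen maturation were widely listed (18 of 30 genes), and their sums of 479.92, 483.58, 491.43 and 599.29 FPKM differed little beside those of the collagens. Serpinh1, the collagen chaperone HSP47, was at 117.78, 168.72, 132.97 and 200.39 FPKM, although type I and III chains were near 0 or had no row. P4ha3, a prolyl hydroxylase subunit, overlapped between the groups. Ppib, a prolyl isomerase, did not as deposited, at 80.01, 85.52, 86.25 and 111.52 FPKM. Crtap, a partner of the prolyl 3-hydroxylase, and Loxl3, a lysyl oxidase family member, had both Fmr-i1 libraries above both Ctrl-i libraries, with fitted differences of 0.69 (SE 0.36) and 0.39 (SE 0.44). Of the 18 genes, 13 had a fitted difference above 0, beside 6380 of all 9804 symbols. Under other scalings of the libraries, 9 to 11 of the 18 genes had a difference above 0 in place of 13, and Ppib, Crtap and Loxl3 overlapped in at least 1 of them. The median over all rows tested was then -0.01 to 0.11, in place of 0.16.

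Of the matricellular and elastic fibre glycoproteins, 18 of 38 had a row, Sparc being the most abundant. Its relative Sparcl1 was at 555.35 FPKM in Ctrl-i Exp.1, 459.85 in Ctrl-i Exp.2, 404.20 in Fmr-i1 Exp.1 and 538.14 in Fmr-i1 Exp.2, and Ctgf, a secreted growth factor modulator, was at 103.70, 40.71, 66.34 and 155.26. Both overlapped between the groups. Fstl1, a secreted relative of follistatin, at 19.72, 18.22, 33.70 and 55.84 FPKM, and Thbs1, thrombospondin-1, at 24.79, 17.87, 38.12 and 57.71, did not overlap.

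Matrix proteoglycans had 15 of 28 genes with a row, led by the syndecans Sdc4 and Sdc2 and by Prelp, with fitted differences of 0.00 (SE 0.33), -0.07 (SE 0.34) and -0.15 (SE 0.32). Gpc4, a glypican, was at 37.86 FPKM in Ctrl-i Exp.1, 28.27 in Ctrl-i Exp.2, 86.85 in Fmr-i1 Exp.1 and 90.09 in Fmr-i1 Exp.2. Both experiments gave the same direction, with a fitted difference of 1.41 (SE 0.32) that did not pass the threshold.

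Matrix receptors had 11 of 22 genes with a row, all 11 with a fitted difference above 0, beside 6380 of all 9804 symbols. With median scaling or quantile normalization this was 8 of 11, and none passed the threshold. Under those scalings the median over all rows tested was -0.01 and 0.01, in place of 0.16. Itgb1, the integrin beta-1 chain that pairs with many alpha chains, was at 44.14 FPKM in Ctrl-i Exp.1, 32.57 in Ctrl-i Exp.2, 57.88 in Fmr-i1 Exp.1 and 64.33 in Fmr-i1 Exp.2. Itga6, a laminin receptor chain, was at 14.54, 7.90, 21.11 and 29.20 FPKM, again without overlap. The collagen receptor Ddr1 was the most abundant, at 219.37, 179.17, 151.19 and 288.49, and like Dag1, dystroglycan, it overlapped.

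Proteases and their inhibitors (12 of 24 genes with a row) were led by Timp2, Serpine2 and Timp3. Timp3, a metalloprotease inhibitor, was lower in both Fmr-i1 libraries, at 174.52 and 195.17 FPKM in Ctrl-i against 130.10 and 170.41 in Fmr-i1, whereas Serpine2, a serine protease inhibitor, was higher, at 183.67 and 173.13 against 205.29 and 228.05. Mmp11, a metalloprotease, was higher too, with a fitted difference of 0.53 (SE 0.35). Timp3 overlapped under at least 1 other scaling, and Serpine2 and Mmp11 did not under any of the 3.

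Vim and Lgals1 themselves were not highest in Fmr-i1 Exp.2, and of 8 listed intermediate filament genes 2 were, beside 35.4% of all symbols. Gfap, the astrocyte filament protein, was at 2101.33 FPKM in Ctrl-i Exp.1, 1439.69 in Ctrl-i Exp.2, 1330.69 in Fmr-i1 Exp.1 and 1370.47 in Fmr-i1 Exp.2, with both Fmr-i1 libraries lower. The ratio of Vim to Gfap was 1.81 and 1.87 under Ctrl-i, and 2.82 and 2.36 under Fmr-i1. Nes, nestin of neural progenitors, was at 73.02, 25.75, 70.20 and 110.80 FPKM, with the libraries in the same order as for Fn1. Among the galectins, 5 of 9 genes had a row and 0 were highest in Fmr-i1 Exp.2, again beside 35.4%. Lgals3 was more abundant than Lgals1, at 907.07, 586.83, 706.17 and 554.93 FPKM, and Lgals8 was lower in Fmr-i1 without overlap, at 27.02, 19.49, 10.64 and 9.49.

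The share of rows with their highest FPKM in Fmr-i1 Exp.2 moved with transcript length over the whole table. Among rows averaging 1 FPKM or more, it was 24.7% for spliced lengths up to 1000 bases, 33.3% from 2000 to 3000, 38.1% from 3000 to 5000 and 51.7% above 8000 bases. The median spliced length was 3496 bases for the genes of the 8 matrix lists, 4022 bases for the 11 rows and 2718 bases for all symbols. The part of length in the results for Fn1, Col4a1 and the matrix lists was not tested.

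**Figure D4:**
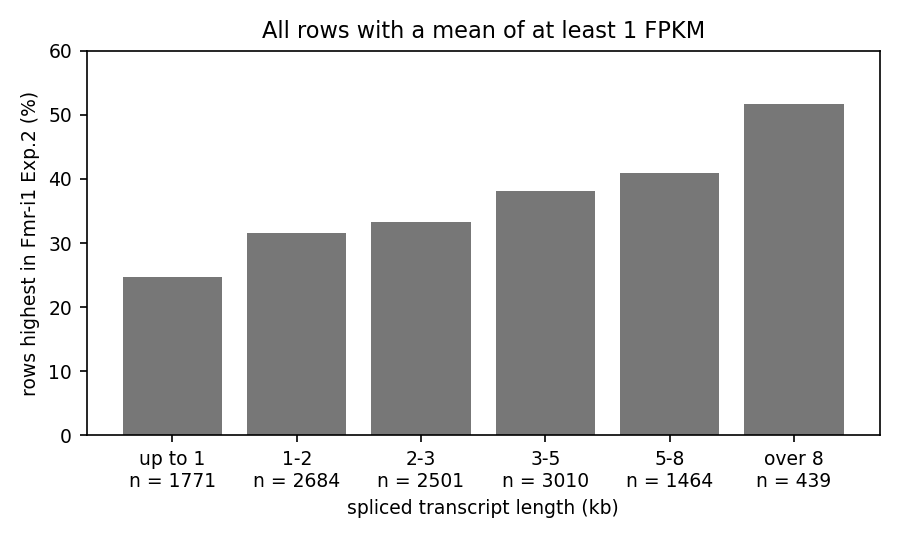
Share of all rows averaging 1 FPKM or more whose highest library was Fmr-i1 Exp.2, by spliced transcript length, with the number of rows under each bar. The bars go up from 24.7% for the shortest to 51.7% for the longest transcripts.

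The labelled cell type was checked with marker lists. All 13 ependymal markers had a row, with sums of 1366.10 FPKM in Ctrl-i Exp.1, 1745.47 in Ctrl-i Exp.2, 1735.99 in Fmr-i1 Exp.1 and 1675.11 in Fmr-i1 Exp.2, led by Dynlrb2, Rsph1 and Foxj1, genes of motile cilia. All 9 astrocyte markers also had a row, with sums of 3564.17, 2837.65, 2575.58 and 2494.76 FPKM, and 6 of 8 radial glia and neural stem cell markers had one, with sums of 865.43, 564.53, 734.20 and 1376.89. The libraries were thus rich in RNA of astrocyte and radial glia markers as well as of ependymal markers. Which cells this RNA came from was not tested. Vim and Sparc, which glia also express, cannot be assigned to a cell type here.

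Of 12 fibroblast markers, Ogn and Prrx1 had a row, while Dcn, Lum, Dpt, Col14a1, Pi16, Fap, Islr, Twist1, Slc6a13 and Mfap5 had none. The sums were 27.44 FPKM in Ctrl-i Exp.1, 17.46 in Ctrl-i Exp.2, 53.52 in Fmr-i1 Exp.1 and 45.31 in Fmr-i1 Exp.2. Nearly all came from Ogn, a small leucine-rich proteoglycan, at 24.34, 15.37, 50.98 and 43.61 FPKM, a gene also counted in the proteoglycan list. Prrx1 went the other way in both experiments, at 3.10, 2.09, 2.54 and 1.70 FPKM, with overlap between the groups. The defining collagens Col1a1 and Col3a1 had no row and Col1a2 was at most 0.70 FPKM in the same libraries.

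Of 15 mural cell markers, 5 had a row, with sums of 112.09 FPKM in Ctrl-i Exp.1, 86.12 in Ctrl-i Exp.2, 208.63 in Fmr-i1 Exp.1 and 188.23 in Fmr-i1 Exp.2. Acta2, smooth muscle actin, at 73.26, 55.92, 149.85 and 100.31 FPKM, and Tagln, transgelin, at 34.96, 28.44, 48.56 and 81.88, made up most of it, both without overlap between the groups, also under the 3 other scalings, and neither past the threshold. Rgs5, a pericyte marker, was at 2.45, 0.48, 2.56 and 4.59 FPKM. The other 2 listed markers, named here after their values were seen, went different ways. Cnn1, calponin of smooth muscle, was at 0.03, 0.42, 7.14 and 0.51 FPKM. Notch3, a receptor of mural cells, was at 1.39, 0.86, 0.52 and 0.94, and under the 3 other scalings both of its Fmr-i1 libraries lay below both Ctrl-i libraries. As deposited, 4 of the 5 genes (all but Notch3) had both Fmr-i1 libraries above both Ctrl-i libraries, beside 26.7% of all symbols. With median scaling 2 did, beside 16.9%, and with quantile normalization 3 did, beside 18.8%. Kcnj8, Abcc9, Cspg4, Des, Anpep, Higd1b, Ndufa4l2, Atp13a5, Vtn and Myh11 had no row. Acta2 was highest in Fmr-i1 Exp.1, where Pdgfrb was near the floor at 0.19 FPKM. The ratio of Acta2 to Pdgfrb ran from 20.1 in Fmr-i1 Exp.2 to 789 in Fmr-i1 Exp.1, the latter resting on that low value. The part of mural or fibroblast RNA in the members' differences was not tested.

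**Figure D5:**
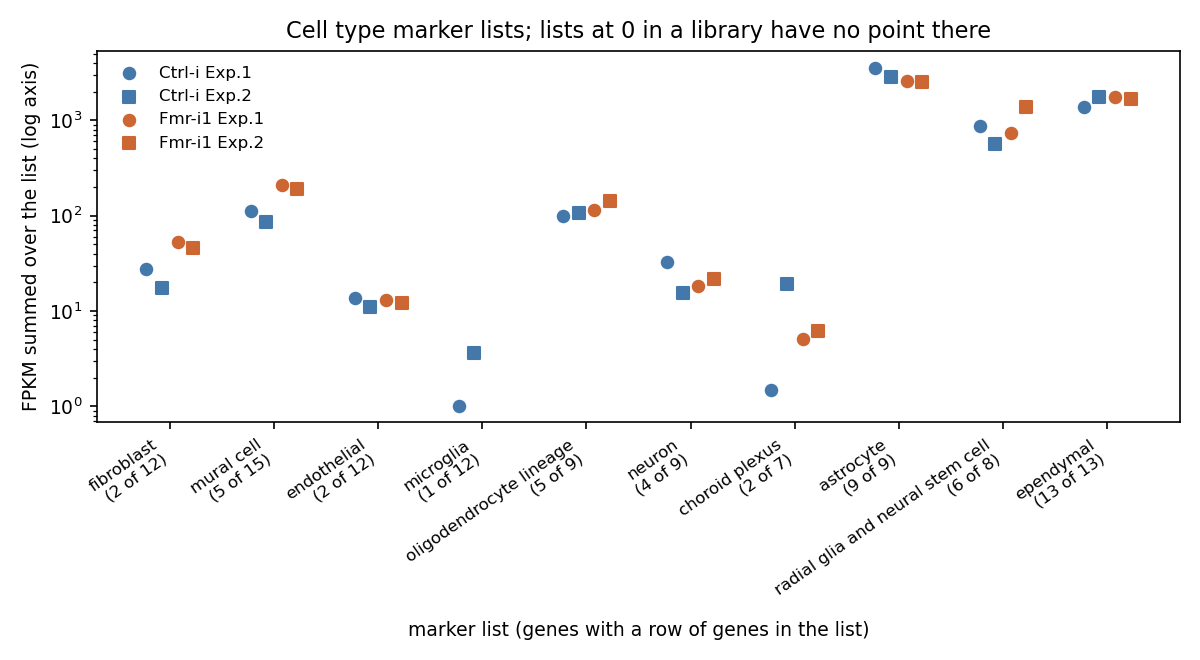
FPKM summed over each cell type marker list on a log axis, 1 point per library (blue, Ctrl-i; orange, Fmr-i1; circles, Exp.1; squares, Exp.2), with the number of listed genes of all genes in the list under each name. Fibroblast sums stay between 17.46 and 53.52 FPKM and mural sums between 86.12 and 208.63, below the ependymal, astrocyte and radial glia lists in every library.

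Lists of other cell types had a row for only some of their genes, and a missing row is again not read as absence. Endothelial markers had 2 of 12 genes with a row (Slco1a4 and Kdr), with sums from 11.01 to 13.82 FPKM and no row for Cldn5, Pecam1, Cdh5, Flt1, Tek, Tie1, Esam, Egfl7, Emcn and Ly6c1. Microglia markers had 1 of 12, Trem2, at 1.02 and 3.59 FPKM under Ctrl-i and listed at 0 for Fmr-i1 in both experiments, with no row for Aif1, C1qa, C1qb, C1qc, Csf1r, Cx3cr1, Itgam, P2ry12, Ptprc, Tmem119 and Tyrobp. Choroid plexus markers had 2 of 7 (Folr1 and Otx2), with sums from 1.49 to 19.14 FPKM and no row for Aqp1, Kcnj13, Kl, Prlr and Ttr. Oligodendrocyte lineage markers had 5 of 9, led by Cnp, Olig1 and Mbp, with sums from 100.26 to 141.87 FPKM and no row for Mag, Mog, Pdgfra and Sox10. Neuron markers had 4 of 9, led by Stmn2, Tubb3 and Gad1, with sums from 15.54 to 33.03 FPKM and no row for Gad2, Rbfox3, Slc17a7, Snap25 and Syt1.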

How the data were processed

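Poly(A) RNA of purified multicilia from 4 cultures (2 Ctrl-i, 2 Fmr-i1) was analysed from 1 deposited table of FPKM per transcript. Per the study's methods, the authors trimmed reads with Cutadapt, mapped them to GRCm38 and computed FPKM with Cuffdiff at its default settings. HISAT2 2.1.0 and featureCounts 1.5.3 stand in the submitters' processing notes instead. The deposited length column equals the genomic span in 90.3% of rows, but FPKM times spliced length gave 92.2% to 93.6% of a library's fragments, so that the values were taken as scaled to spliced length. Rows were matched to GENCODE M21 (12483 of 12515), and 25 symbols turned into dates were restored.

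Rows averaging 1 FPKM or more were tested with limma 3.58.1 (R 4.3.3) on log2(FPKM + 1), with the experiment as a block, a variance trend and Benjamini-Hochberg adjustment over all 11898 rows; p-values are two-sided. The code was tested on simulated data. Samples were grouped by their titles, which give each library's siRNA and experiment. The labels call the experiments by number and the study describes them as independent. Same-numbered libraries did not deviate together (correlation of their deviations -0.08 across rows). The members and all gene lists were chosen with earlier results of these data known. Genes named from a list were the 3 with the highest mean FPKM and up to 2 in each direction with the largest fitted difference among those averaging 5 FPKM or more with no overlap between groups; of marker lists, the 3 highest and those without a row. Results were recomputed with a pseudocount of 0.1 or 5 FPKM, without a filter, with a minimum mean of 5 FPKM, 3 other scalings, sums per symbol, no block, no variance trend and leaving out each library. Fits that left out a library also had no block, and those between the experiments had no siRNA term.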

Additional observations from a re-analysis of the deposited data

How the results depend on the processing

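With 2 libraries a group and no read counts, small changes of low rows were beyond reach, and larger ones of abundant genes were not called either. Gpc4, with a fitted difference of 1.41 (SE 0.32), had an adjusted p of 0.781 (limma on sums per symbol). Without the replicate block, 3 rows of the table were called between the siRNAs in place of 0, none of them a row of the 10 genes; the pairing by experiment number had a correlation of -0.08 between same-numbered libraries. Leaving out 1 library gave 0 to 0 calls between the siRNAs and 0 to 1 between the experiments, where sums per symbol gave 1 call. The median over the member rows ranged from 0.08 (without Ctrl-i replicate 2) to 0.81 (without Fmr-i1 replicate 1). Median scaling left 1 member gene higher in Fmr-i1 in both experiments, beside 23.9% of all symbols. It left 1 with both Fmr-i1 libraries above both Ctrl-i libraries, beside 16.9%. Of 119 alternative values of the 9 member rows, 113 kept their direction and their side of the threshold. The 6 that changed sign were Vim-201 at -0.06 and Sparc-201 at -0.04 with median scaling, Vim-201 at -0.12 and Sparc-202 at -0.03 without Ctrl-i replicate 2, and Sparc-202 at -0.38 and Pdgfrb-201 at -0.57 without Fmr-i1 replicate 2; the cause was not tested. Over all libraries left out in turn, in fits without the block, Vim-201 ran from -0.12 to 0.38, Sparc-202 from -0.38 to 1.05 and Pdgfrb-201 from -0.57 to 1.76. The lowest adjusted p of any member row under any alternative was 0.643 (limma). Under the other scalings, chosen after seeing the data for this count, 51 to 62 of the 101 matrix list genes were highest in Fmr-i1 Exp.2 (63 as deposited), beside 25.3% to 32.3% of all symbols.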

Other observations

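Of 6 PDGF ligand and receptor genes, Pdgfrb included, 5 had a row, Pdgfra having none. All 5 had a fitted difference above 0, as did 6380 of all 9804 symbols tested, and none passed the threshold. Pdgfa was at 12.65 FPKM in Ctrl-i Exp.1, 7.61 in Ctrl-i Exp.2, 17.69 in Fmr-i1 Exp.1 and 16.89 in Fmr-i1 Exp.2. Pdgfb, the ligand that binds the receptor encoded by Pdgfrb, was at 5.73, 3.38, 11.12 and 8.70 FPKM. Neither ligand overlapped between the groups, whereas Pdgfrb did, and Pdgfc, at 3.17, 0.56, 1.44 and 4.87 FPKM, had its libraries in the same order as Pdgfrb. Of 11 TGF-beta ligands, receptors and binding proteins, 6 had a row, the most abundant being the ligand Tgfb3 at 37.25, 21.57, 35.58 and 61.43 FPKM, followed by the latency protein Ltbp3 and the receptor Tgfbr2. Tgfb2 was at 4.99, 1.99, 6.72 and 8.09 FPKM without overlap.

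Of 14 transcription factors of mesenchymal cells, 4 had a row. Zeb1 was at 23.61 FPKM in Ctrl-i Exp.1, 15.71 in Ctrl-i Exp.2, 20.71 in Fmr-i1 Exp.1 and 32.40 in Fmr-i1 Exp.2, with overlap, and Zeb2 was at 4.85, 2.1, 6.17 and 5.82. Prrx1, a fibroblast-associated factor, was at 3.10, 2.09, 2.54 and 1.70 FPKM and was lowest in Fmr-i1 Exp.2, the library in which Fn1, Col4a1 and Pdgfrb were highest. Lmnb1 and Lmna, the nuclear lamins, had both Fmr-i1 libraries above both Ctrl-i libraries, with fitted differences of 0.87 (SE 0.47) and 0.44 (SE 0.34), though Lmna overlapped under at least 1 other scaling.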
